A study of Mus musculus with 11 samples.

Results

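F319 ROV is the 1 of 5 ovary lines in libraries 1 to 7 of this series whose Krt8 level reached 10 CPM, the count of a gene divided by the total of its library and scaled to 1000000. The other 4 ovary lines of those libraries, F364 ROV, F364 LOV, F326 ROV, and F318 ROV, are the lines it was set against. The series holds 11 lines from 7 mice, and 7 of the lines came from an ovary. All were cell lines grown ex vivo in RPMI 1640 from Ovgp1-Trp53-R270H-Myc (OvTrpMyc) mice, in which a p53-R270H mutant and Myc, placed in the Trp53 locus, are driven by the Ovgp1 promoter, a promoter of the secretory cells of the fallopian tube. The mice inherited 1 copy of this allele and received no treatment. ROV and LOV are the right and the left ovary, and each ovary was cut out together with its fallopian tube, so the label "ovary" covers both organs. F364 gave 2 of the 4 other lines, so these come from 3 mice. Each line was sequenced as 1 library, so there is no replicate of F319 ROV, and the values below are levels and folds with counting intervals and no test.

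The line was chosen by its Krt8 level alone, 52.7 CPM, and the highest of the other 4 was F364 LOV at 0.253 CPM. The genes ranked below come from the same comparison, so their distance from the other lines describes this library and is not evidence independent of the choice. The counting intervals given are exact at 95% and cover counting error only. They were computed on read pairs, taken as 2 counts each, because low counts were mostly even: 2155 genes had 2 counts in F319 ROV and 398 had 1.

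Keratins are the intermediate filament proteins of epithelial cells. A type II keratin such as Krt8 pairs with a type I keratin such as Krt18 or Krt19 to build a filament, and this set is typical of single-layered epithelium. The mesothelium that lines the body cavity and the surface epithelium of the ovary carry simple keratins together with surface proteins such as mesothelin (Msln), Muc16 (the CA125 antigen), and uroplakins. Pax8 is a transcription factor of Mullerian epithelium, used in pathology as a marker of serous carcinoma.

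The 5 lines held between 14977107 and 22333181 counts, with F319 ROV the deepest. In F319 ROV, 16286 genes had at least 10 counts, against 14893 to 15679 in the other 4. Genes of adult skeletal muscle fibers took 13.9% of the counts in F319 ROV and 8.67% to 15.9% in the others, and 4 Y-linked genes summed to 157 CPM in this line and to 128 to 162 CPM in the others, although the lines come from female mice. Both values of F319 ROV lie inside the range of the other 4, and the part of depth and of these transcripts in the results was not tested. Trp53 was at 23.1 CPM in F319 ROV and at 10.4 to 25.8 CPM in the others, and Myc at 55.3 against 31.9 to 93.6 CPM. The transgene carries mouse Trp53 and Myc coding sequences, so these levels can include its transcripts. Ovgp1, whose promoter drives the transgene, was at 4.08 CPM against 1.002 to 4.502 CPM.

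The bases before the start sites are shown for Krt8, which chose the line, for Krt18, its partner and neighbour, and for 3 called genes of the mesothelial list. The sequences are from RefSeq (GRCm38.p6), on the strand of each gene, trimmed to end before the start of the gene in GENCODE M21. In Krt8, capitals mark the motif of GATA factors, AGATAA. In Lrrn4 and Upk3b they mark that of TEAD factors, GGAATG, or its reverse complement. In Bnc1 they mark the GC box, spelled GGGCGG, or its reverse complement. The bases shown for Krt18 held none of the motifs searched. Those before Muc16 and Rspo1, called genes of the mesothelial list that are not shown, held none either. Krt8 is at chr15:102004483-102004592 (minus strand), Krt18 at chr15:102027966-102028179 (plus), Upk3b at chr5:136038246-136038495 (plus), Lrrn4 at chr2:132880892-132881112 (minus), and Bnc1 at chr7:81992300-81992549 (minus).
Krt8: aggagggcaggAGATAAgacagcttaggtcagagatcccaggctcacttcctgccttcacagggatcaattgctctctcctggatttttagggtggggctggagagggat
Krt18: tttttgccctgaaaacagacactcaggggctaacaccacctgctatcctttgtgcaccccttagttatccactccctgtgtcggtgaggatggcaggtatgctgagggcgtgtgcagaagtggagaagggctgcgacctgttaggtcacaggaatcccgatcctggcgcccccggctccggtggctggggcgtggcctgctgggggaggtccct
Upk3b: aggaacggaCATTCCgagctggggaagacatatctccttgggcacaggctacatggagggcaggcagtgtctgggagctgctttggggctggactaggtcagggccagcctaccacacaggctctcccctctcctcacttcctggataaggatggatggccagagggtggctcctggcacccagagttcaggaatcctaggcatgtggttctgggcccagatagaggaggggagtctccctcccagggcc
Lrrn4: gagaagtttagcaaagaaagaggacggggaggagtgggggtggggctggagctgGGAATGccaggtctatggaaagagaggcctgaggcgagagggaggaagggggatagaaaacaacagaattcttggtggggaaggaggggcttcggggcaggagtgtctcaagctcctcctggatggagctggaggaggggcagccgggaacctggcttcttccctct
Bnc1: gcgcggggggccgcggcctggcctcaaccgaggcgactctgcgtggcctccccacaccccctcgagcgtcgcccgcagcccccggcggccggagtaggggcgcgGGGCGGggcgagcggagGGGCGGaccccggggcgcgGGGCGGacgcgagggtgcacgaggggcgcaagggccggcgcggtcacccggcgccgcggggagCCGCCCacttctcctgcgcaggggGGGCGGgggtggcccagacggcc

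Motifs were searched on both strands in the full 250 bases before the RefSeq start, without the trimming of the sequences shown, for the 25 of the 39 genes called higher (below) that have a RefSeq sequence and for 10586 compared genes. GGAATG was found in 4 of the 25 and in 10.7% of all, AGATAA in 3 and in 5.9%, TGANTCA (an AP-1 motif) in 3 and in 4.52%, GGGCGG in 13 and in 58.4%, and TATAAA in 2 and in 6.69%. Only the first listed start of each gene was counted. A second start of Gpm6a, left out, also held TATAAA, as its reverse complement. These counts describe letters in a window and no binding was measured.

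A gene was compared when it reached 1 CPM in at least 1 of the 5 lines, which 15892 of 28284 listed genes did. The gap of a gene is its level in F319 ROV minus that of the highest of the 4 other lines, on the log2(CPM + 1) scale, and a gene was called higher at a gap of 2, which is 4-fold on that scale. By this rule 39 genes were called higher, 0.245% of those compared, and 1 was called lower by the same distance below the lowest line, 0.00629%. By any gap, 2540 genes (16.0%) were above all 4 lines and 1295 (8.15%) below all 4. Calls and gaps were counted among compared genes only. At a share of 0.245%, a short list is likely to hold no call, so a count of 0 in a list below is given for completeness and nothing is read from it. Just inside the threshold was Gata6 with a gap of 2.01, and just outside were Ly9 at 1.92 and Dhrs9 at 1.91. The levels of the 39 genes in F319 ROV ran from 4.21 to 559 CPM, and in 14 of them all 4 other lines were below 1 CPM. In bulk RNA, fewer cells with a gene and less RNA of it per cell cannot be told apart.

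**Figure D1:**
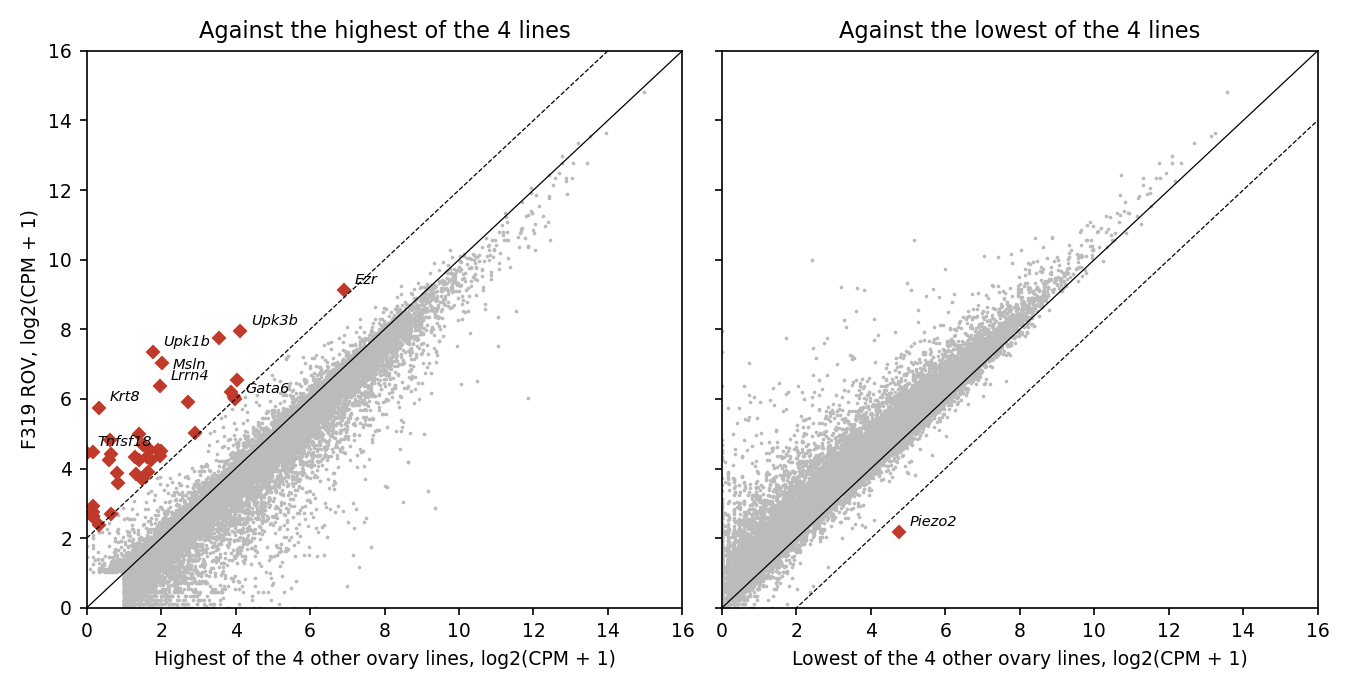
Level of each compared gene in F319 ROV (vertical axis) against the highest (left) and the lowest (right) of the 4 other ovary lines, all as log2(CPM + 1). Solid lines mark equal levels, dashed lines a gap of 2, and red diamonds the 39 genes above it and the 1 gene (Piezo2) below it.

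As a whole, the line lay within the range of distances seen among the other lines. Over all compared genes, its Euclidean distance on the log2(CPM + 1) scale was 94.1 to F364 ROV, 101 to F364 LOV, 100.5 to F326 ROV, and 91.1 to F318 ROV, with a mean of 96.7. The 6 distances among the other 4 lines ran from 74.3, between the lines of F364, to 134, between F326 ROV and F318 ROV, with a mean of 108. F319 ROV differed by 2 or more from each of them in 369 to 449 genes, and the others differed among themselves in 162 to 945.

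Of the 6 simple keratins, 4 were compared and 3 were called higher, where 0.245% of all compared genes were. Krt8, whose level chose the line, is among the 3. Krt8 (chr15:101996698-102004482, minus strand) was at 52.7 CPM in F319 ROV (interval 48.5 to 57.1), 0.127 in F364 ROV, 0.253 in F364 LOV, 0.134 in F326 ROV, and 0.228 in F318 ROV. The other 4 libraries thus held no more than 4 counts of it each, and its ratio to the highest of them was 208 (57.4 to 1723). Krt8-ps, a processed copy of Krt8 on chromosome 7 that can share its reads, was at 5.69 CPM in F319 ROV and at most 0.127 CPM in the others, and its value is uncertain for that reason.

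Krt18, the partner of Krt8, behaved differently in 1 line. It was at 67.9 CPM in F319 ROV (63.1 to 72.9), 39.9 in F364 ROV, 0.759 in F364 LOV, 0.668 in F326 ROV, and 5.82 in F318 ROV. F364 ROV was thus high for Krt18 while its Krt8 was at 0.127 CPM, and F319 ROV was the line with both. The ratio of F319 ROV to F364 ROV was 1.70 (1.49 to 1.95), a gap of 0.75, so Krt18 was not called. Krt18 (chr15:102028180-102032027) is the neighbour of Krt8 on the opposite strand.

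Krt19 and Krt7 were also higher. Krt19, a type I keratin of ducts and mesothelium, was at 21.7 CPM in F319 ROV, 2.60 in F364 ROV, 1.77 in F364 LOV, 1.54 in F326 ROV, and 3.03 in F318 ROV. Krt7, a type II keratin of simple epithelium, was at 12.0 CPM in F319 ROV and at 0.507, 0.127, 0.401, and 1.83 CPM in the same order. Both were above all 4 others, at 7.18 times (4.80 to 11.2) and 6.59 times (3.92 to 11.9) the next line. With 5 in place of 1 added to CPM, the gaps of Krt19 and Krt7 became 1.74 and 1.32, which ended both calls. Krt8 stayed called, at 3.46. Krt20 and Krt23, the remaining members, were below 0.4 CPM in all 5 lines. Per kilobase of exon, the levels in F319 ROV were 47.2 CPM for Krt18, 26.9 for Krt8, 11.7 for Krt19, and 1.71 for Krt7.

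Within 100 kb of Krt8 on chromosome 15, Krt18 was also highest in F319 ROV, with the values given above, and no gene of the window other than Krt8 was called. Eif4b, a translation factor, was at 592 CPM in F319 ROV and at 431 to 653 CPM in the others, and Tns2, a focal adhesion protein, was at 139 against 107 to 363 CPM. Krt79 was at 0.358 CPM in F319 ROV and at most 1.602 CPM in the others, and Krt4 and Krt78 did not reach 1 CPM in any of the 5 lines. The 39 genes lay on 19 chromosomes with at most 5 on one, and the single pair within 1 Mb of each other was Krt7 and Krt8.

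Keratins of stratified epithelium mark skin and other layered epithelia. Of 12 listed, 9 were compared and none was called in either direction, and the median difference of the 12 from the mean of the 4 lines was -0.11, against 0.00 over all listed genes. Krt5 was at 2.55 CPM in F319 ROV, 1.71 in F364 ROV, 0.570 in F364 LOV, 18.8 in F326 ROV, and 0.114 in F318 ROV, and Krt14 was at 4.57, 4.06, 3.92, 20.97, and 1.37 CPM. F326 ROV was the high line for both. Over all 39 keratin genes listed, 16 were compared and 3 were called, the same number as among the simple keratins. Krt80 was at 9.94 CPM in F319 ROV and highest in F318 ROV at 54.2 CPM.

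Mesothelial and ovarian surface genes held the largest number of calls of any list. Of 28 listed genes, 24 were compared and 9 were called higher, where 0.245% of all compared genes were, and the median difference over the 28 was 1.31. F319 ROV was above all 4 lines in 14 of the 24 and below all 4 in 2, where 16.0% and 8.15% of all compared genes were. The list was written with earlier results for these lines known, and 2 of its genes, Msln and Muc16, were given as markers of this line. Summed over the list, the level was 1458 CPM in F319 ROV and 497 to 865 CPM in the others, with F364 ROV the highest of these. Calb2 and Tcf21 had 0 counts in all 5 lines.

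Upk1b and Upk3b encode uroplakins, membrane proteins known from the bladder and the mesothelium. Upk1b was at 161 CPM in F319 ROV (154 to 169), 2.41 in F364 ROV, 0.114 in F318 ROV, and 0 in F364 LOV and F326 ROV. It had the largest gap of all genes, at 5.57, and its ratio to F364 ROV was 66.9 (42.7 to 111). Upk3b was at 246 CPM in F319 ROV (237 to 255), 16.5 in F364 ROV, 0 in F364 LOV, 5.48 in F326 ROV, and 0.685 in F318 ROV. F319 ROV was 14.9 times (12.5 to 17.9) the level of F364 ROV, which was again the second line.

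Msln, the surface protein mesothelin, was at 130.1 CPM in F319 ROV (123.5 to 137), 3.04 in F364 ROV, 1.27 in F364 LOV, 0.668 in F326 ROV, and 2.91 in F318 ROV, a ratio of 42.8 (28.6 to 66.9) to the highest. Muc16, which encodes the large mucin that binds mesothelin, was at 5.06 CPM in F319 ROV (3.83 to 6.56). The other lines had 0 counts apart from 2 counts, or 0.127 CPM, in F364 LOV, which gives a ratio of 40.0 (6.89 to 1607). Both markers given with the line were thus present, Muc16 at a low level.

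Lrrn4, a leucine-rich repeat membrane protein of mesothelium, was at 81.3 CPM in F319 ROV, 2.92 in F364 ROV, 0 in F364 LOV, 0.134 in F326 ROV, and 0.228 in F318 ROV. Bnc1, a zinc finger protein of mesothelium and germ cells, was at 21.4 CPM in F319 ROV, 0.127 in F364 ROV, 0.134 in F326 ROV, and 0 in the other two. Gpm6a, a membrane glycoprotein also used as a mesothelial marker, was at 31.0 CPM in F319 ROV and at 1.65, 0.253, 1.47, and 0.228 CPM in F364 ROV, F364 LOV, F326 ROV, and F318 ROV. All 3 genes were below 3 CPM in the 4 other ovary lines, and their gaps were 4.39, 4.30, and 3.60.

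Rspo1, a secreted protein that strengthens Wnt signalling and is made by the ovarian surface, was at 24.5 CPM in F319 ROV and at 1.78, 0, 1.87, and 0.228 CPM in the same order. It was the single gene called among 34 compared Wnt and Hedgehog genes, where 0.245% of all compared genes were called. Gata6, a transcription factor of coelomic and gonadal tissues, was at 63.1 CPM in F319 ROV, 4.44 in F364 ROV, 14.9 in F364 LOV, 3.61 in F326 ROV, and 12.8 in F318 ROV. It had the smallest gap of the 39, and its call ended under TMM scaling, at 1.82, and under DESeq2 size factors, at 1.77.

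The other genes of the list were not called, and 5 of them were above all 4 lines. Wt1, a transcription factor of mesothelium and gonad, was at 72.7 CPM in F319 ROV, 65.6 in F364 ROV, 5.70 in F364 LOV, 67.2 in F326 ROV, and 4.57 in F318 ROV, so that it stood at like levels in 3 lines. Gata4 was lower in F319 ROV, at 9.76 CPM, than in F364 ROV, F364 LOV, and F326 ROV, at 72.9, 39.6, and 89.4 CPM, and above F318 ROV at 2.74 CPM. Efemp1 was at 51.6 CPM in F319 ROV and 64.4 CPM in F364 LOV. Nkain4, at 4.93 CPM against at most 1.14, was above all 4 with a gap of 1.47.

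**Figure D2:**
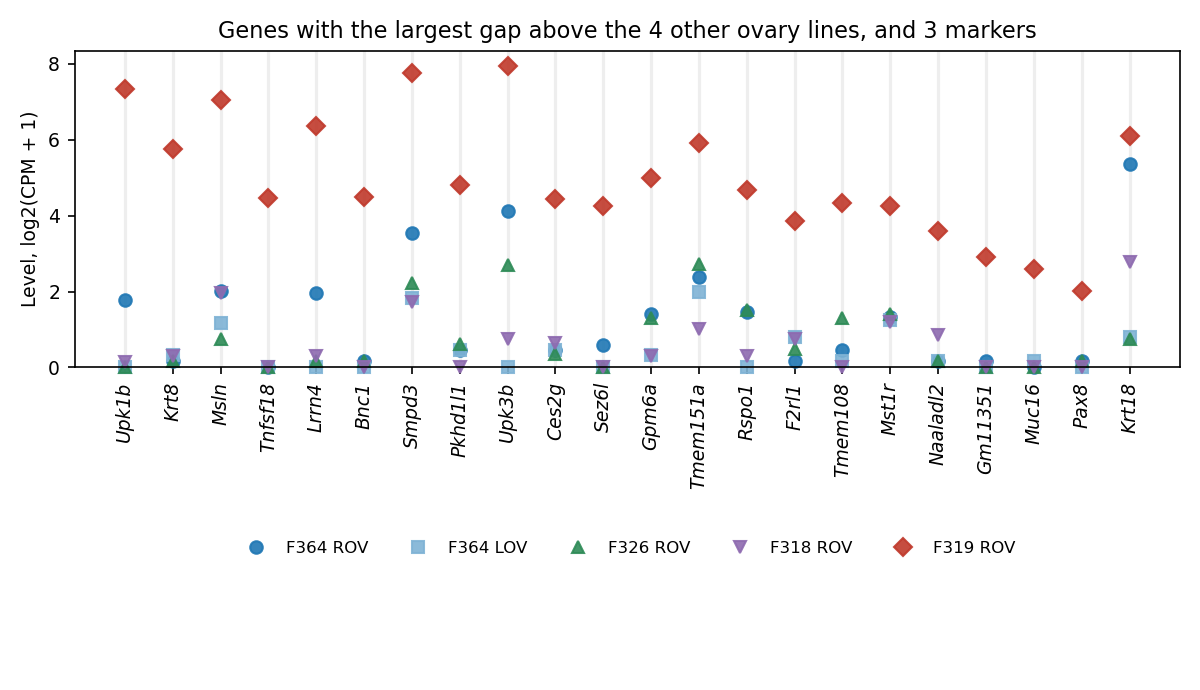
Level as log2(CPM + 1) in each of the 5 ovary lines (vertical axis) for 19 of the 20 genes with the largest gap and for the markers Muc16, Pax8, and Krt18. F319 ROV (red diamonds) lies above the other lines in all 22 genes shown, and F364 ROV comes close to it in Krt18.

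Pax8, the Mullerian marker, was at 3.04 CPM in F319 ROV (2.11 to 4.26), 0.127 in F364 ROV, 0.134 in F326 ROV, and 0 in F364 LOV and F318 ROV. The highest of these rests on 2 counts, and the ratio to it was 22.8 (3.83 to 927). The gap of Pax8 was 1.84, so it was not called. This depends on the value added to CPM: the gap was 2.48, a call, with 0.5 in place of 1, and 0.65 with 5. Of 25 Mullerian and oviduct genes, 19 were compared and none was called, and the median difference of the 25 was 0.04. Pax2 and Wfdc2, which are expressed in the oviduct, were at 0.0896 CPM in F319 ROV, also under the floor given below, and at 0 in the others. Wnt4 and Sox17 were at 88.3 and 31.8 CPM in F319 ROV and at 44.2 to 123 and 18.4 to 55.3 CPM in the others. Of 10 genes of ciliated cells, 6 were compared and none was called. Foxj1, the regulator of motile cilia, was at 0.0896 CPM in F319 ROV, under the floor of 0.269 CPM that 6 counts set in this library.

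Of 21 tight and adherens junction genes, 15 were compared, none was called, and 7 of the 21 were below 1 CPM in F319 ROV. Of 29 epithelial regulators and surface genes, 18 were compared, none was called, and 14 of the 29 were below 1 CPM. Of all 28284 listed genes, 13845 were below 1 CPM in F319 ROV, so nothing is read from these counts. E-cadherin (Cdh1) was at 1.21 CPM in F319 ROV, 3.68 in F364 ROV, 3.04 in F364 LOV, 1.27 in F326 ROV, and 0.685 in F318 ROV. Epcam was at 0.179 CPM in F319 ROV and at most 0.401 CPM in the others, and Grhl2, a regulator of epithelial junctions, had 0 counts in F319 ROV. Esrp1, an epithelial splicing factor, and occludin (Ocln) were at 0.0896 CPM.

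P-cadherin (Cdh3), like Krt18, was high in both F319 ROV and F364 ROV. It was at 82.6 CPM in F319 ROV, 42.3 in F364 ROV, 0.506 in F364 LOV, 1.87 in F326 ROV, and 3.83 in F318 ROV. N-cadherin (Cdh2) was at 42.3 CPM in F319 ROV and at 56.2 to 85.7 CPM in the others, so F319 ROV was the lowest of the 5.

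Of 19 claudins, the strand proteins of tight junctions, 14 were below 1 CPM in F319 ROV, where 13845 of all 28284 listed genes were. The 6 claudins compared held no call. Cldn15 had the highest gap, at 31.3 CPM in F319 ROV, 3.68 in F364 ROV, 8.86 in F364 LOV, 3.61 in F326 ROV, and 5.71 in F318 ROV, a gap of 1.71. Cldn3, Cldn4, and Cldn7, which most glandular epithelia use, were below 0.2 CPM in F319 ROV. Of 18 desmosome genes, 14 were compared and none was called. Desmoplakin (Dsp) was at 2.06 CPM in F319 ROV against 0.228 to 5.74, and Dsg2 was at 1.48 CPM in F319 ROV, 37.3 in F364 ROV, and 25.1 in F326 ROV.

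Ezr, which encodes the ezrin that ties actin to microvilli, was the most abundant called gene. It was at 559 CPM in F319 ROV (545 to 573), 119.9 in F364 ROV, 57.7 in F364 LOV, 60.3 in F326 ROV, and 32.9 in F318 ROV, or 4.66 times (4.352 to 4.996) F364 ROV. Its gap of 2.21 became 1.99 under DESeq2 size factors, which ended its call. Podocalyxin (Podxl), a surface protein bound by ezrin, was at 94.5 CPM in F319 ROV and at 28.7, 12.6, 56.6, and 22.3 CPM in the others, a gap of 0.73.

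Mesenchymal genes were expressed in F319 ROV along with the keratins, and of 28 genes, 27 were compared and none was called. Vimentin (Vim) was at 1030 CPM in F319 ROV, 629 in F364 ROV, 806 in F364 LOV, 628 in F326 ROV, and 1280 in F318 ROV. Col1a1 was at 1512 CPM in F319 ROV, 34.8 in F364 ROV, 248 in F364 LOV, 259 in F326 ROV, and 5592 in F318 ROV, while Col1a2, whose chain joins that of Col1a1 in collagen I, was at 64.7, 11.8, 131.9, 317, and 3672 CPM. The line was below F318 ROV alone for Col1a1 and below 3 of the 4 others for Col1a2. Zeb1 was at 70.1 CPM in F319 ROV and at 55.5 to 82.4 CPM in the others, and Twist1, at 23.5 CPM, was above the next line, F318 ROV at 11.4 CPM, by a gap of 0.99.

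**Figure D3:**
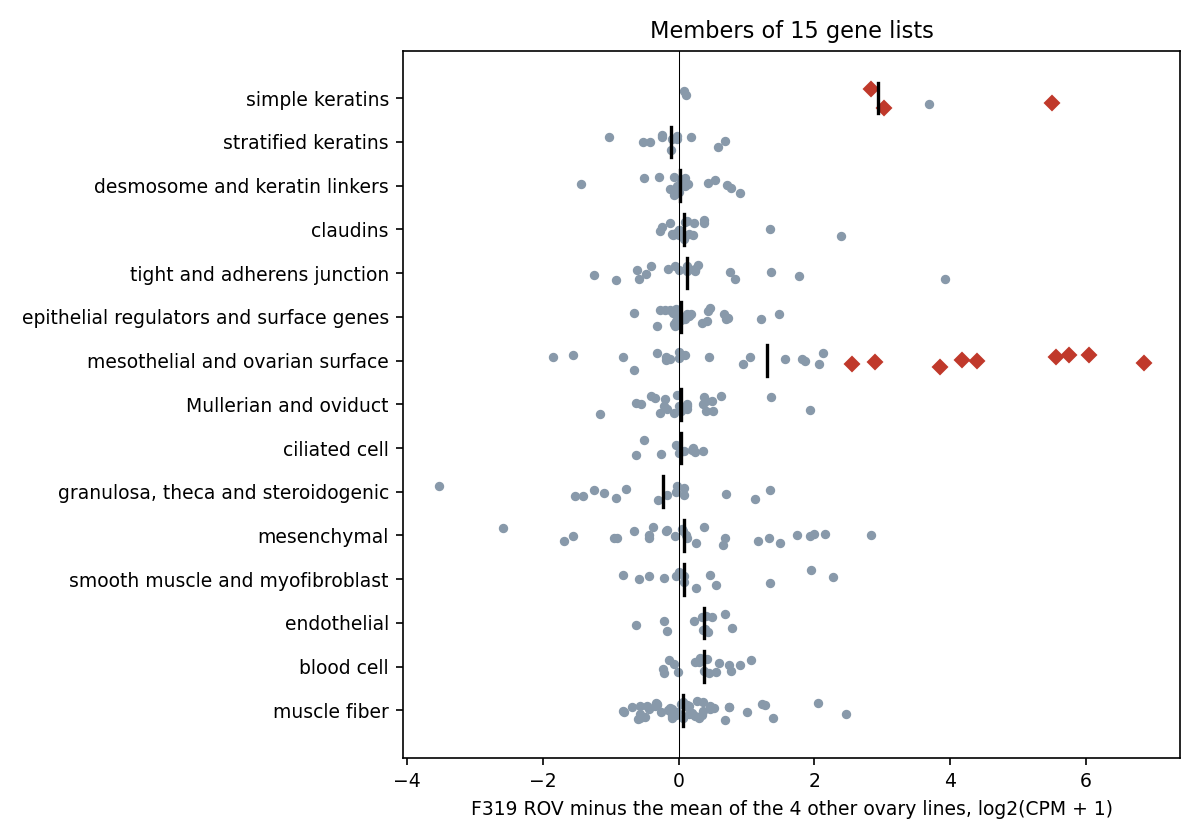
Difference between F319 ROV and the mean of the 4 other ovary lines, on the log2(CPM + 1) scale, for each found member of 15 lists. Each dot is a gene, red diamonds are genes called higher, and black bars are list medians, which are 2.93 for simple keratins and 1.31 for mesothelial genes and lie between -0.23 and 0.38 in the other 13 lists.

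Several signalling genes were among the 20 with the largest gap. Tnfsf18, which encodes the TNF family ligand GITRL, had 469 counts in F319 ROV, or 21 CPM (18.4 to 23.9), with 0 counts in all 4 others. Against a floor of 3 read pairs, or 6 counts, in the shallowest of these libraries (0.401 CPM), it was at least 52.4-fold higher. F2rl1, the protease-activated receptor PAR2, was at 13.57 CPM in F319 ROV and at 0.127, 0.759, 0.401, and 0.685 CPM in F364 ROV, F364 LOV, F326 ROV, and F318 ROV.

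Of 41 growth factor receptors and ligands, 39 were compared and 2 were called higher, where 0.245% of all compared genes were. Mst1r, the RON receptor of macrophage-stimulating protein, was at 18.1 CPM in F319 ROV and at 1.52, 1.39, 1.67, and 1.31 CPM in the others. Ephb2, an ephrin receptor, was at 65.8 CPM in F319 ROV, 1.52 in F364 ROV, 9.11 in F364 LOV, 0.801 in F326 ROV, and 14.5 in F318 ROV. Met, the related receptor of hepatocyte growth factor, was at 54.5 CPM in F319 ROV and at 26.96 to 48.0 CPM in the others.

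None of 34 compared TGF-beta and BMP genes and none of 23 compared chemokines and cytokines was called. The highest gap among the first was in Bmp4, a BMP ligand, at 102.5 CPM in F319 ROV, 27.1 in F364 ROV, 30.8 in F364 LOV, 14.7 in F326 ROV, and 6.05 in F318 ROV, a gap of 1.71. The BMP antagonist Nog was at 41.2 CPM in F319 ROV and at 3.48 to 19.0 CPM in the others. Il33, an alarmin, was at 11.1 CPM against 0.506 to 4.61 CPM, and complement C3 at 197 against 49.8 to 93.9 CPM.

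Other genes among the 20 serve varied functions. Smpd3, the neutral sphingomyelinase that makes ceramide, was at 216 CPM in F319 ROV, 10.7 in F364 ROV, 2.53 in F364 LOV, 3.67 in F326 ROV, and 2.28 in F318 ROV. The carboxylesterase Ces2g was at 20.5 CPM in F319 ROV and at most 0.571 CPM in the others. Pkhd1l1 was at 27.04 CPM against at most 0.534, Sez6l at 18.1 against at most 0.507, Tmem151a at 59.4 against at most 5.61, Tmem108 at 19.3 against at most 1.47, Naaladl2 at 11.1 against at most 0.799, and the gene model Gm11351 at 6.54 against at most 0.127 CPM.

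The remaining called genes had gaps from 2.05 to 2.71 beside Gata6. They include Hand2, a transcription factor of mesoderm, at 18.1 CPM in F319 ROV and at 1.52, 0, 2.34, and 0.628 CPM in F364 ROV, F364 LOV, F326 ROV, and F318 ROV. Mmp13, a collagenase, was at 5.19 CPM against at most 0.127 CPM, and Adcyap1r1, the PACAP receptor, at 71.9 against at most 13.59 CPM. Serpinb6b, Spon2, Megf6, Ptprq, Slc7a3, Adgrb2, Mirt1, Plek2, and Ifi27l2b were also called, at 4.21 to 91.9 CPM in F319 ROV.

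F364 ROV was the highest of the 4 other lines in 15 of the 39 genes, with Tnfsf18, at 0 in all 4, counted there, and in 11.6% of all compared genes. Its level as a share of that in F319 ROV was not constant: it ran from 0% to 21.5% over the 39, with a median of 3.35%. In F364 LOV, F326 ROV, and F318 ROV, the medians were 1.40%, 2.72%, and 2.78%. For Krt18 and Cdh3, which were not called and so are not capped by the rule, F364 ROV was far nearer to F319 ROV, as given above.

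In the other direction, 24 genes had a gap of 1 or more below the lowest, 0.151% of those compared, against 149 above the highest, 0.938%. The single gene called lower was Piezo2, a mechanically gated ion channel, at 3.54 CPM in F319 ROV (2.52 to 4.83), 39.8 in F364 ROV, 30.4 in F364 LOV, 26.1 in F326 ROV, and 73.2 in F318 ROV. The lowest of these, F326 ROV, was 7.38 times (5.22 to 10.7) F319 ROV. In the F361 peritoneal tumor line of libraries 1 to 7, Piezo2 was lower still, at 1.33 CPM. Of the 15 genes with the largest gap below the lowest line, Piezo2 and 9 others, among them Nr5a1, Sox9, Prss35, Col11a1, Mmp11, and Olfml2b, were lower in a tumor line of libraries 1 to 7 than in F319 ROV.

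Among genes of granulosa and steroid-making cells, the sum of 16 was 85.8 CPM in F319 ROV, below the 121 to 191 CPM of the other lines. Nr5a1 (SF-1), the regulator of steroidogenic genes, was at 0.358 CPM in F319 ROV (0.0976 to 0.917), 18.6 in F364 ROV, 14.4 in F364 LOV, 38.4 in F326 ROV, and 4.11 in F318 ROV, a gap of 1.91 below the lowest, which turned to -0.44 with the tumor lines added. Sox9, a transcription factor of gonadal supporting cells outside the list, was at 4.21 CPM in F319 ROV and at 39.8, 17.1, 82.7, and 12.4 CPM in the others. Foxl2, the granulosa regulator, was at 0.716 CPM in F319 ROV and 0.633 CPM in F364 LOV, and at 2.74 to 7.55 CPM in the other 3. The follistatin gene Fst was higher in F319 ROV, at 15.3 CPM, than in F364 ROV, F364 LOV, and F326 ROV, at 2.03, 3.99, and 2.34 CPM, and below F318 ROV at 32.9 CPM. Of the 16 genes, 12 were compared and none was called, and the median difference of the 16 was -0.23. Of the 12, Insl3 was above all 4 lines, by a gap of 0.02, and 2 were below all 4, where 16.0% and 8.15% of all compared genes were.

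Other genes below the lowest line had smaller gaps. Prss35, a serine protease-like protein of the ovary, was at 1.25 CPM in F319 ROV, 34.6 in F364 ROV, 14.9 in F364 LOV, 159 in F326 ROV, and 6.17 in F318 ROV, a gap of 1.67. Shisa6 had 0 counts in F319 ROV and was at 10.02, 1.52, 16.3, and 1.83 CPM in the others, so it was at least 5.65-fold lower than in F364 LOV against a floor of 0.269 CPM.

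Col11a1, a fibrillar collagen chain, was at 3.94 CPM in F319 ROV and at 26.8, 69.5, 10.2, and 70.7 CPM in F364 ROV, F364 LOV, F326 ROV, and F318 ROV. Mmp11, a stromal metalloproteinase, was at 13.0 against 35.3 to 53.7 CPM, Adamts14, which trims procollagen, at 4.79 against 16.01 to 40.9 CPM, and Olfml2b at 19.97 against 49.0 to 75.3 CPM. Of 39 compared collagens, 5 were above all 4 lines and 4 below, where 16.0% and 8.15% of all compared genes were. Col27a1 was above by a gap of 1.18, at 15.1 CPM against 1.65 to 6.14 CPM. Gm53, Clca3a1, Rtn4rl1, Slc15a5, and A730049H05Rik were also below all 4 lines.

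**Figure D4:**
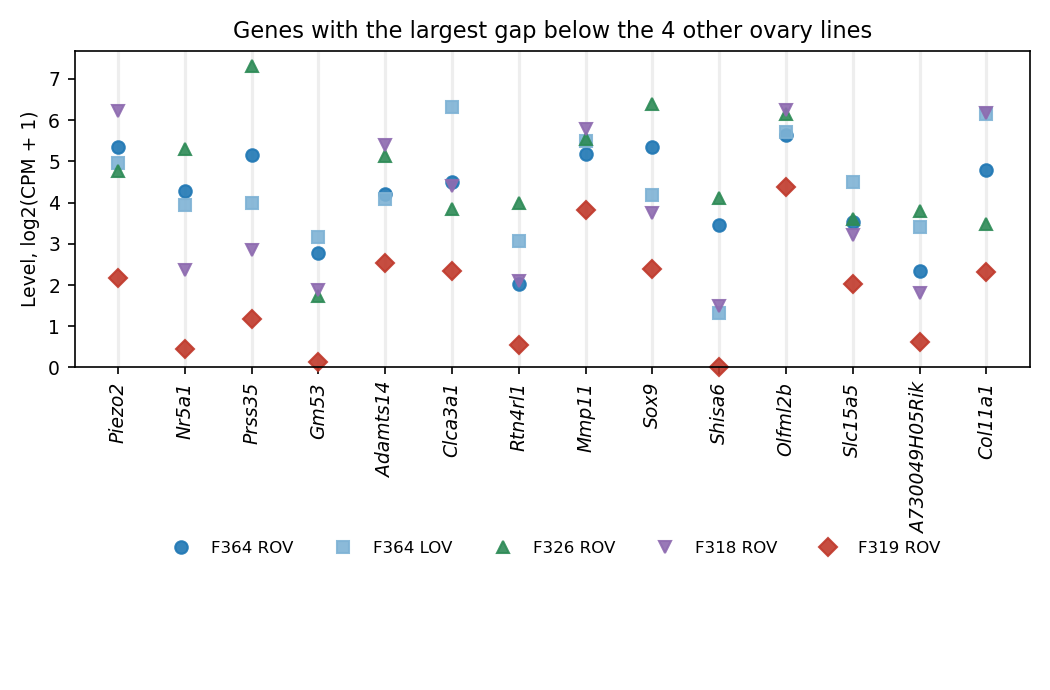
Level as log2(CPM + 1) in each of the 5 ovary lines (vertical axis) for 14 of the 15 genes with the largest gap below the lowest of the 4 other lines. F319 ROV (red diamonds) is lowest in every gene shown, and Piezo2 alone reaches a gap of 2.

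Markers of other cells that the cultures could hold were examined as well, and none of 12 compared endothelial and none of 12 compared blood cell genes was called. The endothelial list summed to 568 CPM in F319 ROV and to 438 to 726 CPM in the others. The blood cell list summed to 148 CPM in F319 ROV, above the 86.3 to 106.6 CPM of the others, with Lyz2 at 43.3 CPM and C1qa at 27.6 CPM, while Mpo had 0 counts and Cd3e was at 0.0896 CPM. F319 ROV was above all 4 lines in 7 of the 12 compared blood cell genes, where 16.0% of all compared genes were. The adipocyte list, with none of 9 compared genes called, summed to 390 CPM against 181 to 355 CPM, and the part of these cells in the results was not tested. None of 30 proliferation genes and none of 23 p53 target genes was called, with median differences of 0.09 and 0.03.

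No gene was called in the remaining lists. These were collagens (44 genes, median difference 0.21), basement membrane and integrins (28, 0.03), smooth muscle and myofibroblast (14, 0.08), muscle fiber (52, 0.06), Schwann and neural (9, 0.57), interferon-stimulated (25, 0.44), retinoid (16, -0.12), and Y-linked genes (4, 0.26).

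The 39 genes were then read in the other 6 lines of the series, which the choice did not use. The F326 splenic tumor and F361 peritoneal tumor lines belong to libraries 1 to 7, and 35 genes kept a gap of 2 when they were added. The 4 that did not were Ephb2, Hand2, Ces2g, and Plek2, with gaps of 1.83, 1.94, 1.94, and 1.98. Against all 10 other lines, 21 genes kept a gap of 2, among them Upk1b, Msln, Krt8, Lrrn4, Upk3b, Gpm6a, Rspo1, Muc16, and Ezr. Libraries 8 to 11 held 0.178% to 1.37% of counts in muscle fiber genes, against 8.67% to 16.4% in libraries 1 to 7, and the library set cannot be told apart from the lines it holds.

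In 9 of the 39 genes, another line was at or above F319 ROV. Krt7 was at 16.6 CPM in the F319 uterus line and 40.5 CPM in the F333 uterus line, above the 12.0 CPM of F319 ROV. Gata6 was at 71.6 CPM in F333 uterus and 62.3 CPM in F339 ROV. Slc7a3, an amino acid transporter, was at 41.2 CPM in F339 ROV and 82.6 CPM in F318 LOV. Ces2g was at 50.2 CPM in F339 ROV. Ephb2, Spon2, Serpinb6b, and Ifi27l2b were also among the 9. Below F319 ROV but within a gap of 1, Smpd3 was at 136.8 CPM and Tmem151a at 47.9 CPM in F333 uterus, Krt19 at 17.2 CPM in F318 LOV, and F2rl1 at 9.72 CPM in F339 ROV.

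The uterus line of the same mouse, F319, had not entered the choice of the line. It was set against F339 ROV, F318 LOV, and F333 uterus, the other lines of libraries 8 to 11, by the same rule, and 99 of 15022 genes were called higher in it, 0.659%. Of the 39 genes, 24 were compared there and 2 were called, Bnc1 with a gap of 3.15 and Pkhd1l1 with a gap of 2.77. These are 8.33% of the 24 genes compared there, where 0.659% of all genes were called. As shares of each list, they are 5.13% of the 39 genes and 2.02% of the 99. The F319 uterus line was above its 3 comparison lines by any gap in 3 of the 24 genes, or 12.5%, and in 34.4% of all genes compared there.

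The values of the F319 uterus line for the main genes were low. Krt8 was at 0.296 CPM, Krt18 at 0.555, Msln at 0.629, Pax8 at 0.259, and Upk1b at 0.0740 CPM, and Muc16, Upk3b, and Lrrn4 had 0 counts. Bnc1 was at 9.28 CPM and Pkhd1l1 at 8.47 CPM, between F319 ROV at 21.4 and 27.04 CPM and the other lines at no more than 0.442 and 0.736 CPM.

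**Figure D5:**
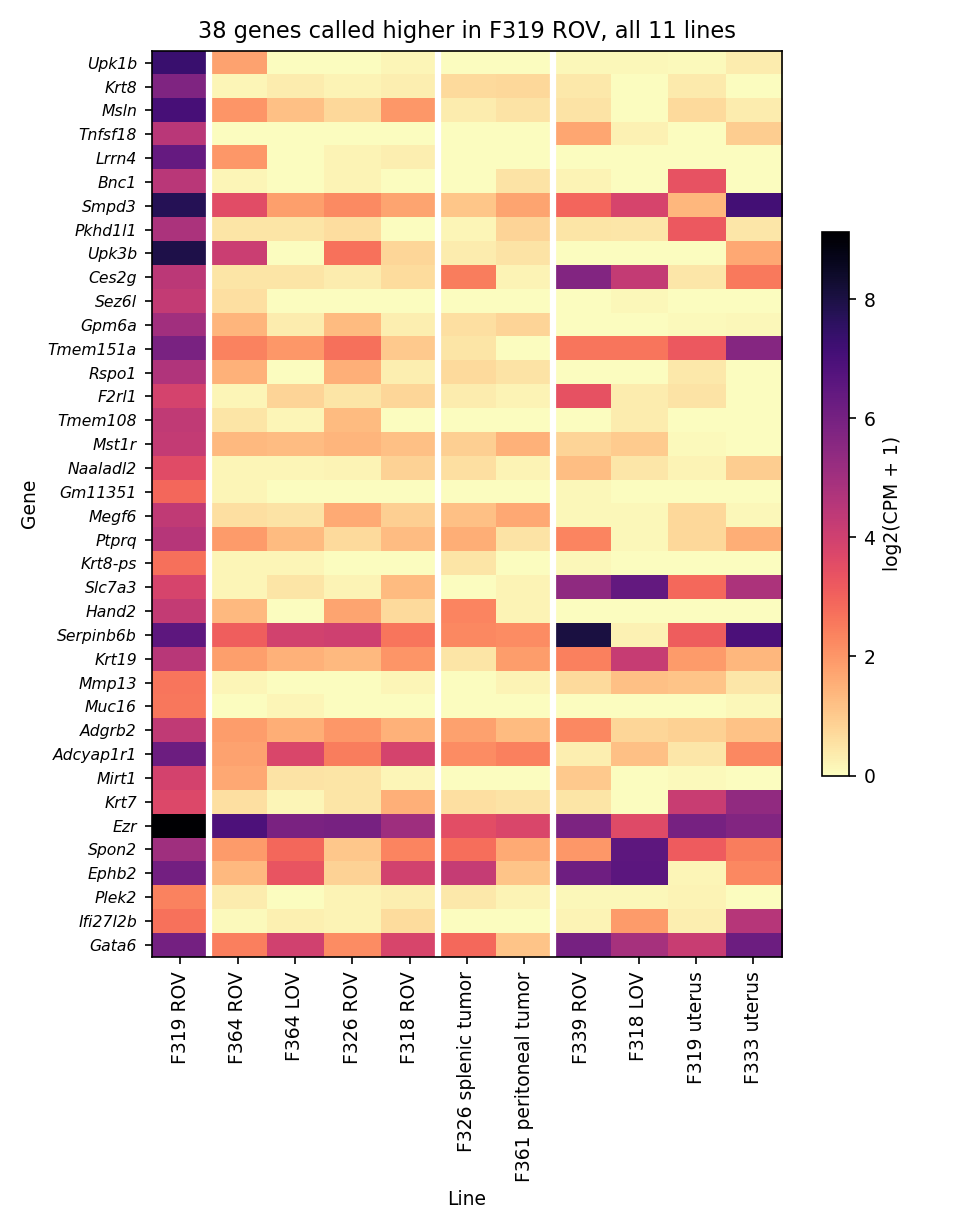
Level as log2(CPM + 1), by colour, of 38 of the 39 genes called higher in F319 ROV (rows, ordered by gap) in all 11 lines (columns, with white bars between F319 ROV, the 4 other ovary lines, the tumor lines, and libraries 8 to 11). Upk1b, Krt8, Msln, and Lrrn4 are dark in F319 ROV alone, while Ces2g, Slc7a3, Serpinb6b, Ephb2, and Gata6 are as dark or darker in lines of libraries 8 to 11.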

How the data were processed

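Polyadenylated RNA of 11 mouse cell lines was sequenced as paired-end reads, 1 library per line. The authors aligned the reads to GRCm38 (mm10) with STAR, removed duplicates with SAMtools, counted reads per gene with featureCounts against Ensembl annotation, and deposited raw counts without normalization. Whether the counting used strand is not given in the sources used here. Low counts were mostly even in every library, and counting intervals were therefore set on read pairs, a choice made after seeing the data.

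Counts were divided by library totals to give CPM, and levels were compared as log2(CPM + 1). Genes at 1 CPM or more in at least 1 of the 5 lines were compared. A gap of 2 from the highest or the lowest of the 4 lines was a call. Because 1 library was chosen by its own Krt8 level, no test between lines was run. Poisson intervals are exact, and ratio intervals are exact conditional binomial, both at 95%. The script that makes the calls and intervals was checked on simulated counts with known changes. Genes named are the 5 given markers, the 20 with the largest gap above and the 15 below, called members of the gene lists, and their highest, lowest, or defining members, except a few that are not reported here. Ly9, Dhrs9, the neighbours of Krt8, the called genes past the 20 that no list holds, and other list members given for their levels were named after their values were seen, as were Trp53 and Myc. The line, the markers, and the 29 lists were chosen with earlier results of these data known.

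Gene positions and exon lengths are from GENCODE M21, and promoter sequences from RefSeq. Alternatives covered the scaling (TMM of edgeR 4.0.16, size factors of DESeq2 1.42.0, both used for factors alone), the pseudocount, the gap, the filter, and the lines compared. Software was R 4.3.3, Python 3.11.15, numpy 2.4.6, scipy 1.17.1, pandas 2.3.3, and matplotlib.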

Additional observations from a re-analysis of the deposited data

Results flagged for a closer look

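Over the 7 ovary lines, 38 named genes, 29 summed lists, and the library total were examined for a line far from the other 6 (Dixon's ratio above its 95% critical value), which chance gives in about 1 of 20 such groups. F319 ROV was this line in 18 genes, all of them markers or genes ranked by their gap in the same library, so the ratio is a description of the choice and supports nothing. These were Upk1b at 161.2 CPM, Krt8 at 52.7, Msln at 130.1, Tnfsf18 at 21, Lrrn4 at 81.3, Bnc1 at 21.4, Smpd3 at 216, Pkhd1l1 at 27.04, and Sez6l at 18.1 CPM. The others were Gpm6a at 31.0, Tmem151a at 59.4, Rspo1 at 24.5, Tmem108 at 19.3, Mst1r at 18.1, Naaladl2 at 11.1, Gm11351 at 6.54, Muc16 at 5.06, and Pax8 at 3.04 CPM. In the 6 other ovary lines, Muc16 reached at most 0.127 CPM and Pax8 at most 0.218 CPM.

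Outside F319 ROV, the endothelial list summed to 14.4 CPM in F318 LOV, against 302 to 726 CPM in the other 6 ovary lines. The interferon-stimulated list summed to 844 CPM in F339 ROV, against 70.5 to 151 CPM.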

How the results depend on the processing

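The count of 39 genes higher in F319 ROV was 36 to 39 under TMM, DESeq2 size factors, a total without muscle fiber genes, and no filter. Gata6 and Spon2 were no longer called under TMM (1.82 and 1.95) and DESeq2 size factors (1.77 and 1.91), nor Ezr under the latter (1.99), and 38 of the 39 stayed called with the total without muscle fiber genes. DESeq2 size factors moved the median difference over all compared genes from 0.10 to -0.01. The count was 54 with a pseudocount of 0.5, 17 with a pseudocount of 5, 49 with the F364 pair as 1 value, 149 at a gap of 1, 16 at a gap of 3, and 21 against all 10 other lines (added after seeing the data). Leaving out 1 of the 4 lines gave 48 to 68 genes higher, the most without F318 ROV, since a line left out can add calls but remove none. The single gene lower became 5 with a pseudocount of 0.5, 0 with a pseudocount of 5, 24 at a gap of 1, 0 at a gap of 3, 2 with the F364 pair as 1 value, and 0 with the tumor lines added, where the gap of Piezo2 turned to -0.96 and 10 of the 15 genes with the largest gap were lower in a tumor line than in F319 ROV. Leaving out 1 line gave 1 to 8 genes lower, with 8 without F326 ROV and 8 without F318 ROV. The 99 genes higher in the F319 uterus line became 37 with a pseudocount of 5. The mean distance of 96.7 became 108.3 with a pseudocount of 0.5 and 69.5 with 5, against 120.4 and 79.2 among the other lines. The pseudocount acts by construction on genes of low level, and the cause of the other changes was not tested. No paired analysis was possible because no test was run and F319 ROV shares its mouse with none of the 4 lines. With 1 library per line, no value here separates a trait of F319 ROV from a property of its library. At these depths, a count of 0 allows a level of up to 0.269 CPM in F319 ROV and 0.343 to 0.401 CPM in the other 4 lines.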
